A study of Mus musculus with 9 samples.

Results

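The 10 genes described here encode the glucose transporter Slc2a1 (GLUT1) and 9 enzymes of glycolysis and lactate production: Hk1, Hk2, Aldoa, Tpi1, Gapdh, Pgk1, Eno1, Pkm and Ldha. They were taken by name from the 31053 genes listed for each library, where they fill 11 rows because Aldoa has 2 rows, which were summed. The genes were measured in 3 single-cell RNA libraries of thymocytes from adult female mice, 1 library for each sorted population: cells with CD4 but no CD8 (CD4 single-positive, CD4 SP), cells with CD8 but no CD4 (CD8 SP), and cells with both (double-positive, DP). Each library mixed mice carrying the I173A substitution in CD3ε, an invariant signalling chain of the T cell receptor complex, with wild-type (WT) mice. I173A cells carried hashtag 6 and WT cells hashtag 4, where a hashtag is an antibody with an oligonucleotide barcode. No other allele, treatment or age in weeks is given in the sources used here, nor is the number of mice in each genotype. A genotype is therefore 1 sample per gate, no test between genotypes was possible, and no p-value is given. Ranges in parentheses are exact 95% intervals that cover the counting error of unique molecular identifiers (UMIs) only, not the spread between mice.

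Glycolysis splits glucose into pyruvate in the cytosol and yields ATP, reducing equivalents and building blocks for nucleotides, lipids and amino acids. Thymocytes pass from proliferating immature cells to small resting DP cells, and then through selection to SP cells. Proliferating T cells are known for high glucose uptake and for turning pyruvate into lactate even where oxygen is present. The enzymes act in the order transporter, hexokinase, aldolase, triose phosphate isomerase, glyceraldehyde phosphate dehydrogenase, phosphoglycerate kinase, enolase, pyruvate kinase and lactate dehydrogenase.

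The promoters of Tpi1, Gapdh, Pgk1 and Ldha are shown, the 4 members higher by point value in cycling cells of every gate and both genotypes. Each is given as the 250 bases before an annotated start in RefSeq on mouse build GRCm38.p6, read along the gene. Capitals mark ACGTG on either strand, the core of the hypoxia response element that HIF-1 binds in many glycolysis genes. The windows are chr6:124814159-124814408 (minus strand) for Tpi1, chr6:125165774-125166023 (minus) for Gapdh, chrX:106186850-106187099 (plus) for Pgk1 and chr7:46845554-46845803 (plus) for Ldha.
Tpi1: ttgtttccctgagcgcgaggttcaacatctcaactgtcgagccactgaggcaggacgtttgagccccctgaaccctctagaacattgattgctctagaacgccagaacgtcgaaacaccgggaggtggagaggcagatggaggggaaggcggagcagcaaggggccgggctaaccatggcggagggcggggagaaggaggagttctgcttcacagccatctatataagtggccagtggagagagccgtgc
Gapdh: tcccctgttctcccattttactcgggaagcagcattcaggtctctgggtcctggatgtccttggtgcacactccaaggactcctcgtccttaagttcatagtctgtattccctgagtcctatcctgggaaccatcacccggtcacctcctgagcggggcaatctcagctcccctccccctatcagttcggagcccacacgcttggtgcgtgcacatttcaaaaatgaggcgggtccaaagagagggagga
Pgk1: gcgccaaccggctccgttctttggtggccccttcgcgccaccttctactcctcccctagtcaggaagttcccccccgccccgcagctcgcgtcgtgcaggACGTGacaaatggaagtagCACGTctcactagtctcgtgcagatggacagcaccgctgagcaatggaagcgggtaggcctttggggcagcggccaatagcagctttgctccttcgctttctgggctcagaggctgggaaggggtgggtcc
Ldha: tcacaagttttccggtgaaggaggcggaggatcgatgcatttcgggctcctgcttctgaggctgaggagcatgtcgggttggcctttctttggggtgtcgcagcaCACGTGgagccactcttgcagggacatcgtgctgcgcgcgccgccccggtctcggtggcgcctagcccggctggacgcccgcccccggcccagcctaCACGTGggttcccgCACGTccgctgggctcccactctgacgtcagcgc
The Tpi1 and Gapdh windows held no ACGTG, the Pgk1 window held 2 matches and the Ldha window shown 5. Another window annotated for Ldha, chr7:46846832-46847081, is not shown and held no ACGTG. In the Ldha window shown, 4 of the 5 matches form 2 copies of the palindrome CACGTG, the E-box letters that MYC and MAX also bind, so the motifs overlap. Over the 17 windows annotated for the 10 members, 7 held ACGTG (41.2%), against 16.7% of 32536 mouse promoter windows of the same length, and they belonged to Pgk1, Ldha, Aldoa, Pkm, Hk2 and Slc2a1. The 32536 windows, called all windows here, leave out 1 chromosome that holds no member and count identical sequences once. CACGTG was found in 1 of the 17 windows, against 6.04% of all windows. CCAAT, the letters bound by NF-Y, stood in 7 of the 17 windows, against 33.8% of all. The 4 spellings TTTCGCGC, TTTGGCGC, TTTCCCGC and TTTGCCGC of the E2F motif were in 0 of the 17, against 1.87% of all. Windows of the same gene can overlap. The Aldoa windows that held ACGTG share the same match and the same CCAAT, and the Eno1 windows that held CCAAT share theirs, so these matches are counted in more than 1 window. A match in a window is a description of its letters, and a window with no match says nothing of sites outside it.

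After hashtag assignment and quality filters, 2664 I173A and 3109 WT cells remained of the CD4 SP gate, 2872 I173A and 3017 WT cells of the CD8 SP gate, and 2706 I173A and 2516 WT cells of the DP gate. Before the split by cycling state, the groups held between 8659807 (I173A DP) and 22544044 (WT CD8 SP) UMIs. After it the smallest were cycling CD4 SP cells, with 849494 (I173A) and 994147 (WT) UMIs, and I173A cycling DP cells, with 1298842 UMIs. Member values in these groups are the least precise. The noncycling cells of each gate matched its label: in I173A and WT cells Zbtb7b, the CD4-lineage factor, stood at 99.8 and 110.9 CPM (UMIs of the gene per 1000000 UMIs of the group) in CD4 SP, at 0 in both genotypes of CD8 SP, and at 1.63 and 2.84 CPM in DP. Rag1, which cuts receptor genes in DP cells, stood at 1385 and 1508 CPM in DP and below 10 CPM in both SP gates. Cycling CD8 SP cells matched theirs less closely, as given with their results. Between pairs of libraries, 109 to 124 cell barcodes were shared, 97 to 105 of them among the cells kept. The cells were grouped into 21 clusters, and 5 of these had a median log2 difference above 0 over a list of mitosis genes and were called cycling. All other cells were called noncycling. That class therefore includes clusters 9 and 20, which were high in S phase genes (medians of 1.21 and 1.54 on the log2 scale) but not in mitosis genes. None of the 10 members was among the 2000 variable genes used for clustering. The sums of macrophage or dendritic cell genes were 99.96 CPM in I173A and 97.95 CPM in WT noncycling CD4 SP cells, 284.3 and 105.6 CPM in CD8 SP cells, and 199.6 and 217.2 CPM in DP cells, with 8 to 10 of the 10 genes detected in CD4 SP and CD8 SP cells. Without the clusters of other cell types and of low RNA, the members' median log2 ratio, I173A over WT, in noncycling CD8 SP cells was -0.0502, against -0.05 with them.

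Cycling cells made up 1.88% (1.40 to 2.47%) of I173A and 1.83% (1.39 to 2.37%) of WT CD4 SP cells, 8.36% (7.37 to 9.43%) and 15.9% (14.7 to 17.3%) of CD8 SP cells, and 4.77% (4.00 to 5.64%) and 15.5% (14.1 to 17.0%) of DP cells. They were larger in RNA, with median UMI counts of 9444 in I173A and 8940 in WT cycling DP cells, against 2701 and 2665.5 in noncycling DP cells. The 10 members together held 5043 CPM in I173A and 5199 CPM in WT cycling DP cells, against 2969 and 3247 CPM in noncycling DP cells. In CD8 SP cells the same sum was 5960 and 7107 CPM in cycling cells and 4217 and 4424 CPM in noncycling cells. In CD4 SP cells it was 5952 and 5750 CPM in cycling cells and 4692 and 4821 CPM in noncycling cells. The sum was thus higher in cycling than in noncycling cells in every gate and both genotypes, but most of this rise was in Gapdh. In I173A and WT cycling CD4 SP cells Gapdh stood at 2745 and 2453 CPM, against 1487 and 1510 CPM in noncycling ones. In CD8 SP cells it stood at 3338 and 4143 CPM, against 1600 and 1695 CPM. In DP cells it stood at 3411 and 3463 CPM, against 1505 and 1644 CPM. The sum therefore does not show a rise of the members as a set. With each cell thinned to 1500 UMIs, the median cell held 6 member UMIs in I173A and 6 in WT cycling DP cells, against 4 and 4 in noncycling DP cells, and the left-out shallower cells numbered 4 and 2 among cycling and 284 and 308 among noncycling cells.

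**Figure D1:**
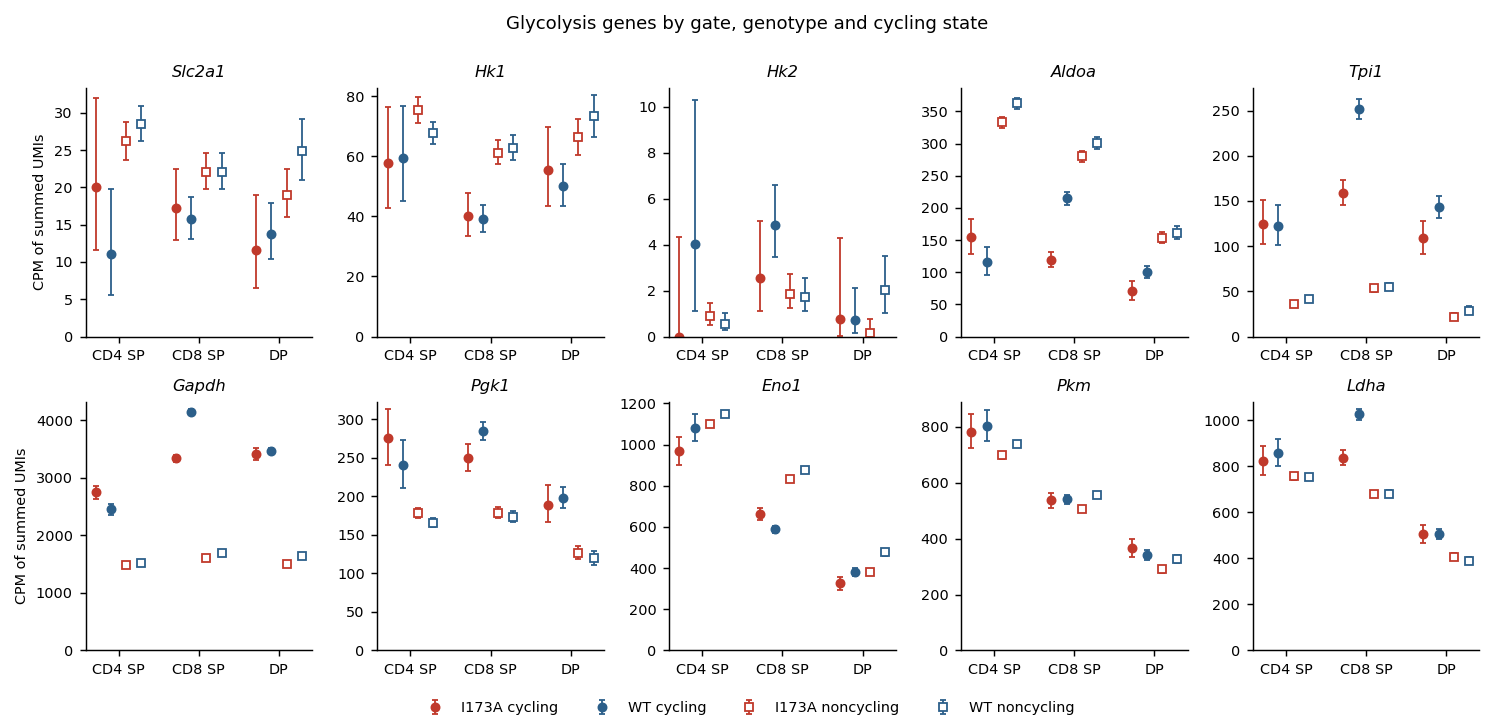
Level of each member in CPM of summed UMIs (vertical axis, starting at 0, with its own scale in each panel) by gate (horizontal axis), where filled circles are cycling and open squares noncycling cells, I173A in red and WT in blue, and bars are exact 95% Poisson intervals. Tpi1 and Gapdh stand higher in cycling cells of every gate (Tpi1 at 108.6 and 142.9 CPM in cycling I173A and WT DP cells, 21.9 and 28.7 CPM in noncycling ones), and Aldoa stands lower there.

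Between genotypes, most members differed little once cycling cells were set apart. In noncycling CD4 SP and CD8 SP cells, 0 of the 9 measured members differed by at least 0.32 on the log2 scale in either direction, the fold used between genotypes, while in noncycling DP cells 3 were past it in the lower direction in I173A: Eno1, Tpi1 and Slc2a1. Hk2 was the member left out, since it stood below 5 CPM in each of the 12 groups of gate, genotype and cycling state. The 3 genes lower in DP are the enolase that makes phosphoenolpyruvate, the isomerase of triose phosphates and the main glucose transporter of proliferating T cells.

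In noncycling DP cells, Eno1 stood at 379.7 CPM in I173A (2795 UMIs) and 476.1 CPM in WT (2849 UMIs), a ratio of 0.798 (0.757 to 0.841). Tpi1 stood at 21.9 CPM in I173A (161 UMIs) and 28.7 CPM in WT (172 UMIs), a ratio of 0.761 (0.610 to 0.949). Slc2a1 stood at 19.0 CPM in I173A (140 UMIs) and 24.9 CPM in WT (149 UMIs), a ratio of 0.764 (0.602 to 0.969). The intervals of Tpi1 and Slc2a1 reach close to 1, and the one for Eno1 is the narrowest of the 3. Of all 9354 genes measured in this comparison 4.38% were past this fold lower and 8.16% past it higher, and the 3 of 9 members lower and 0 of 9 higher are to be read against those shares. The members were chosen with earlier results of these data known, so the counts are a description only. The median log2 ratio was -0.14 over the members and 0.02 over all genes measured. Over 14 alternative ways of processing, the log2 ratio of Tpi1 ran between -0.46 and -0.33, that of Eno1 between -0.41 and -0.28 and that of Slc2a1 between -0.46 and -0.24, so Eno1 and Slc2a1 did not reach the fold under each of them.

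The other members in noncycling DP cells lay nearer to equality. Pkm, which makes pyruvate, stood at 289.6 CPM in I173A and 325.9 CPM in WT (ratio 0.889, 0.836 to 0.946), and Gapdh, which oxidises glyceraldehyde phosphate, at 1505 and 1644 CPM (0.915, 0.891 to 0.941). Both counting intervals lie below 1, but neither ratio reached the fold. Hk1, the hexokinase that traps glucose in the cell, stood at 66.3 and 73.2 CPM (0.906, 0.795 to 1.03), and Aldoa, which splits fructose bisphosphate, at 153.6 and 161.4 CPM (0.952, 0.873 to 1.04). Ldha stood at 406.3 CPM in I173A and 390.2 CPM in WT (1.04, 0.986 to 1.10), and Pgk1, the first enzyme of the pathway to make ATP, at 127.0 and 120.1 CPM (1.06, 0.958 to 1.17). Enolase and pyruvate kinase, which act next to each other, were thus both lower in I173A cells by point value, while lactate dehydrogenase was not. Hk2, the hexokinase induced in activated T cells, gave 1 UMI in I173A and 12 UMIs in WT noncycling DP cells, a ratio of 0.0677 (0.00158 to 0.458).

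By cluster, Eno1 was lower in I173A cells by point value in clusters 0 and 7 of the DP gate and not in cluster 5. In the largest, cluster 0, led by Rag1 and Rag2, Eno1 stood at 337.5 CPM in 1827 I173A cells and 451.5 CPM in 1513 WT cells (ratio 0.747, 0.701 to 0.796). In cluster 7, which held Egr1 and Bcl6 among its leading genes, it stood at 559.4 and 674.7 CPM (0.829, 0.732 to 0.940). In cluster 5, whose cells had a median of 1581.5 UMIs, it stood at 165.0 and 136.5 CPM, with an interval of 0.858 to 1.71 that includes 1. Gapdh in cluster 0 stood at 1399 and 1644 CPM (0.851, 0.824 to 0.878) but in cluster 7 at 2430 and 2409 CPM (1.01, 0.947 to 1.08). Slc2a1 and Tpi1 were not alike across the clusters. Slc2a1 stood at 14.8 and 22.3 CPM in cluster 0 (0.661, 0.487 to 0.895) and at 32.6 and 71.9 CPM in cluster 5 (0.454, 0.238 to 0.842), but at 31.7 and 14.6 CPM in cluster 7, on 36 and 9 UMIs (2.17, 1.03 to 5.13). Tpi1 stood at 21.6 and 28.3 CPM in cluster 0 (0.764, 0.590 to 0.989), at 16.3 and 16.8 CPM in cluster 5 (0.973, 0.322 to 3.07) and at 26.4 and 21.1 CPM in cluster 7 (log2 ratio 0.33), where its ratio had an interval of 0.634 to 2.62. The lower levels of Slc2a1 and Tpi1 in the gate were thus found in cluster 0, for Slc2a1 also in cluster 5, and not in cluster 7. The sum over the members differed more in cluster 0 than in cluster 7, with 2744 and 3182 CPM in cluster 0 and 4523 and 4537 CPM in cluster 7. The clusters were built from the same cells, so these values describe where the gate's difference lies and are not separate samples.

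In noncycling CD4 SP cells the ratios of the 9 measured members ran on the log2 scale between -0.20 for Tpi1 and 0.16 for Hk1, with a median of -0.06 (all genes 0.04). Past the fold in this gate were 5.21% of 9149 genes in the higher direction and 2.12% in the lower direction, and 0 members in either. Eno1 stood at 1100.2 CPM in I173A and 1150.2 CPM in WT (0.956, 0.938 to 0.976), and Pkm at 698.9 and 738.8 CPM (0.946, 0.923 to 0.970). Tpi1 (ratio 0.873, 0.783 to 0.972) and Aldoa (0.918, 0.886 to 0.952) had intervals below 1 as well. Hk1 was at 75.3 and 67.6 CPM (1.11, 1.03 to 1.21) and Pgk1 at 178.6 and 166.1 CPM (1.08, 1.02 to 1.13). In noncycling CD8 SP cells the log2 ratios ran between -0.14 for Pkm and 0.04 for Pgk1, with a median of -0.05 (all genes 0.03). Of 8908 genes there, 4.22% were past the fold higher and 2.23% past it lower, and 0 members were past it. Pkm stood at 505.8 CPM in I173A and 556.2 CPM in WT (0.909, 0.881 to 0.939). Eno1 stood at 833.8 and 874.8 CPM (0.953, 0.930 to 0.977). Aldoa stood at 279.9 and 300.8 CPM (0.930, 0.891 to 0.971) and Gapdh at 1600 and 1695 CPM (0.944, 0.927 to 0.961). Eno1 and Pkm thus had intervals below 1 in all 3 gates, with sizes short of the fold in both SP gates, and with cells thinned to 1500 UMIs the log2 ratio of Eno1 in CD8 SP was -0.0070. Ldha lay at 755.7 and 755.0 CPM in CD4 SP cells. In CD8 SP cells it lay at 681.0 and 681.5 CPM. The sign of so small a difference depended on scaling: with TMM or median-of-ratios factors the log2 ratios of Ldha in CD4 SP (0.00 as reported) and Slc2a1 in CD8 SP (0.00 as reported) turned to -0.05 and to -0.03 or -0.02.

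**Figure D2:**
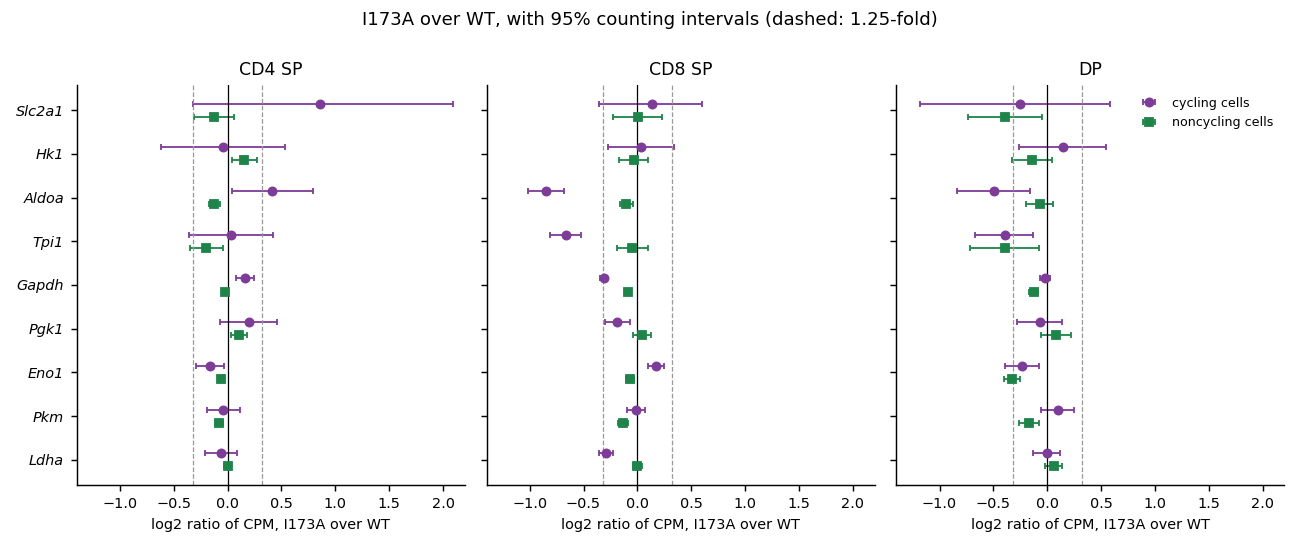
Log2 ratio of CPM, I173A over WT (horizontal axis), for each measured member (rows) in the 3 gates, with cycling cells as purple circles above noncycling cells as green squares and bars for 95% counting intervals. Noncycling SP values sit within the fold (dashed lines at 0.32 in either direction), noncycling DP values of Slc2a1, Tpi1 and Eno1 lie past it, and cycling CD8 SP values of Aldoa (-0.85) and Tpi1 (-0.66) lie farthest to the left.

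Cycling CD8 SP cells held markers of both stages. Rag1 stood at 37.7 CPM in I173A and 74.0 CPM in WT cycling CD8 SP cells, against below 1 CPM in noncycling ones, and Nkg7, a cytotoxic granule gene, at 292.3 and 131.4 CPM, against 754.4 and 729.9 CPM. Clusters 8 and 12, which also hold DP gate cells, had medians of -3.62 and -3.34 on the log2 scale, against the other cells, over the mature CD8 SP markers and of 0.89 and 0.65 over the rearranging-DP markers. In clusters 11 and 19, which hold none, these medians were 0.03 and 0.36 for mature CD8 SP markers and -5.70 and -4.75 for rearranging-DP markers.

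Among cycling cells, Tpi1 and Aldoa were the members past the fold lower in I173A, in both the CD8 SP and the DP gate. In cycling CD8 SP cells Tpi1 stood at 159.0 CPM in I173A (497 UMIs) and 251.7 CPM in WT (2030 UMIs), a ratio of 0.632 (0.571 to 0.697). Aldoa stood at 119.3 CPM in I173A (373 UMIs) and 214.6 CPM in WT (1731 UMIs), a ratio of 0.556 (0.496 to 0.622). These 2 of 9 members lower and 0 higher stand beside 15.6% lower and 21.1% higher among 8935 genes, and with so wide a background the members' counts are not a result about the members. Gapdh stood at 3338 and 4143 CPM (0.806, 0.788 to 0.823), Ldha at 836.1 and 1025 CPM (0.816, 0.780 to 0.852) and Pgk1 at 250.4 and 284.7 CPM (0.880, 0.810 to 0.954). Their intervals lie below 1 without the ratio reaching the fold, while Eno1 was higher by point value, at 661.1 and 587.4 CPM (1.13, 1.07 to 1.19). With TMM or median-of-ratios factors Ldha and Gapdh were past the fold too, which makes 4 of 9 lower and 0 higher, beside 17.9% lower and 19.3% higher of all genes under TMM.

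The makeup of the cycling class differed between genotypes in the CD8 SP gate. Cluster 8, led by histone genes and also found in the DP gate, held 15.8% of I173A and 41.4% of WT cycling CD8 SP cells. Cluster 11, which held no DP gate cell, held 48.8% and 28.1%, and cluster 12, led by Gzma and Cdc6, 13.8% and 21.4%. In WT CD8 SP cells Tpi1 stood at 304.8 CPM in cluster 8 and 316.9 CPM in cluster 12, against 103.0 CPM in cluster 11. Within cluster 11 the genotypes were close: Tpi1 stood at 104.5 and 103.0 CPM (1.01, 0.813 to 1.27) and Gapdh at 2416 and 2351 CPM (1.03, 0.982 to 1.07) in I173A and WT cells. Aldoa there stood at 59.6 and 75.1 CPM (0.794, 0.599 to 1.05). With cluster 11 alone, an alternative chosen after seeing the data, the members' median log2 ratio in cycling CD8 SP cells was 0.0038, against -0.18 in the whole class.

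In cycling DP cells Tpi1 stood at 108.6 CPM in I173A (141 UMIs) and 142.9 CPM in WT (591 UMIs), a ratio of 0.760 (0.628 to 0.914). Aldoa stood at 70.8 CPM in I173A (92 UMIs) and 99.6 CPM in WT (412 UMIs), a ratio of 0.711 (0.561 to 0.893). Here too 2 of 9 members were lower and 0 higher, against 15.5% lower and 12.6% higher of 9024 genes. Gapdh stood at 3411 and 3463 CPM (0.985, 0.952 to 1.02) and Ldha at 504.3 and 506.6 CPM (0.996, 0.910 to 1.09), both close to 1. In cluster 8 alone, Tpi1 in DP cells stood at 126.3 and 147.5 CPM (0.856, 0.688 to 1.06) and Aldoa at 71.2 and 111.0 CPM (0.641, 0.480 to 0.844). The cycling CD4 SP class held only 50 I173A and 57 WT cells, where Aldoa stood at 154.2 and 115.7 CPM (1.33, 1.03 to 1.73) and Slc2a1, on 17 and 11 UMIs, at 20.01 and 11.1 CPM (1.81, 0.799 to 4.27).

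With cycling and noncycling cells pooled, Tpi1 and Gapdh differed more between genotypes in the DP and CD8 SP gates. Tpi1 stood at 34.9 CPM in I173A and 75.4 CPM in WT DP cells (0.463, 0.403 to 0.529), and at 71.9 and 125.3 CPM in CD8 SP cells (0.574, 0.537 to 0.613). Gapdh stood at 1791 and 2387 CPM in DP cells (0.750, 0.735 to 0.765) and at 1908 and 2571 CPM in CD8 SP cells (0.742, 0.732 to 0.752). Cycling cells held 14.9985% of UMIs in I173A and 40.9% in WT DP cells, and 17.7% and 35.8% in CD8 SP cells. When the I173A cycling and noncycling levels were weighted by the WT share of cycling UMIs, the log2 ratio of Tpi1 was -0.40 in DP, against -1.11 as observed, and that of Gapdh -0.06, against -0.41. In CD8 SP the weighted log2 ratio of Tpi1 was -0.46, against -0.80 as observed, and that of Gapdh -0.21, against -0.43. Eno1 in DP was at -0.29 when weighted, against -0.24 as observed, and Aldoa in DP at -0.18, against 0.05. In CD4 SP, where cycling shares were close, Tpi1 was at -0.16 in both ways.

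Cycling over noncycling, the members did not form 1 block. Tpi1, Gapdh and Pgk1, which catalyse successive steps, and Ldha were higher by point value in cycling cells of every gate and both genotypes. Aldoa, Slc2a1, Hk1 and Eno1 were lower by point value, except that with TMM or median-of-ratios factors the sign of Eno1 turned in both genotypes of DP (in WT only with median-of-ratios) and in WT CD4 SP, and that of Hk1 in I173A DP. In WT DP cells Tpi1 stood at 142.9 CPM in cycling and 28.7 CPM in noncycling cells (4.97, 4.19 to 5.93), Gapdh at 3463 and 1644 CPM (2.11, 2.05 to 2.16) and Pgk1 at 198.5 and 120.1 CPM (1.65, 1.49 to 1.83). Aldoa stood at 99.6 and 161.4 CPM (0.617, 0.549 to 0.693) and Slc2a1 at 13.8 and 24.9 CPM (0.554, 0.401 to 0.756). That makes 3 of 9 members past 1.5-fold higher and 2 lower, against 16.0% higher and 35.8% lower of 9384 genes. This count depends on the scaling: with TMM or median-of-ratios factors both lower calls are lost and Ldha is added, which makes 4 of 9 higher and 0 lower, against 23.2% higher and 21.7% lower of all genes under TMM. Under TMM Aldoa stood at -0.40 and Slc2a1 at -0.55 on the log2 scale. The median of all genes in this comparison was itself -0.32 on the log2 scale, and the members' median was 0.07. TMM placed the middle of all genes at -0.30, and relative to it the members' median was 0.37, with Tpi1, Gapdh, Pgk1, Aldoa and Slc2a1 on their sides of 0. Eno1 (382.3 and 476.1 CPM) stood at 0.01 under median-of-ratios factors, against -0.32 as reported.

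In WT CD8 SP cells 4 of 9 members were past 1.5-fold higher in cycling cells and 1 was lower, against 21.1% and 24.0% of 9098 genes. Tpi1 stood at 251.7 CPM in cycling and 54.9 CPM in noncycling cells (4.58, 4.22 to 4.98), Gapdh at 4143 and 1695 CPM (2.44, 2.40 to 2.48), Pgk1 at 284.7 and 173.9 CPM (1.64, 1.55 to 1.73) and Ldha at 1025 and 681.5 CPM (1.504, 1.46 to 1.55). Ldha sits at the threshold and drops out of that count with TMM factors. Hk1 was the lower one, at 39.1 and 62.7 CPM (0.623, 0.546 to 0.709), next to Eno1 at 587.4 and 874.8 CPM (0.671, 0.649 to 0.694), just outside. Clusters 8 and 12, low in mature CD8 SP markers, held 53.2% and 20.5% of the UMIs of WT cycling CD8 SP cells. In WT cells of cycling cluster 11, Tpi1 stood at 103.0 CPM, Gapdh at 2351 CPM, Pgk1 at 244.4 CPM and Ldha at 721.0 CPM. The part of cell stage in the ratios of this gate was not tested. Hk2 stood at 4.84 CPM in cycling cells (39 UMIs) and 1.73 CPM in noncycling cells (25 UMIs), a ratio of 2.80 (1.65 to 4.83). It was highest in clusters 12 (7.85 CPM) and 8 (5.1 CPM) of this gate.

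In WT CD4 SP cells, with 57 cycling cells, 2 of 9 members were past 1.5-fold higher and 2 lower, against 14.8% and 24.6% of 9216 genes. With TMM or median-of-ratios factors Pgk1 was past it too. Tpi1 stood at 121.7 CPM in cycling and 41.6 CPM in noncycling cells (2.93, 2.40 to 3.54) and Gapdh at 2453 and 1510.1 CPM (1.62, 1.56 to 1.69). Aldoa stood at 115.7 and 362.4 CPM (0.319, 0.263 to 0.384) and Slc2a1, on 11 and 557 UMIs, at 11.1 and 28.5 CPM (0.388). The I173A cells likewise had Tpi1 above 1 and Aldoa below 1 in each gate. Their cycling over noncycling ratio of Tpi1 was 3.44 (2.77 to 4.23) for CD4 SP cells, 2.99 (2.67 to 3.35) for CD8 SP cells and 4.96 (3.93 to 6.26) for DP cells. Their ratio of Aldoa was 0.463 (0.387 to 0.551), 0.426 (0.382 to 0.474) and 0.461 (0.369 to 0.571) in the same gates. Hk2 gave no UMI in 50 I173A cycling CD4 SP cells, and a count of 0 at that depth allows up to 3.53 CPM.

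**Figure D3:**
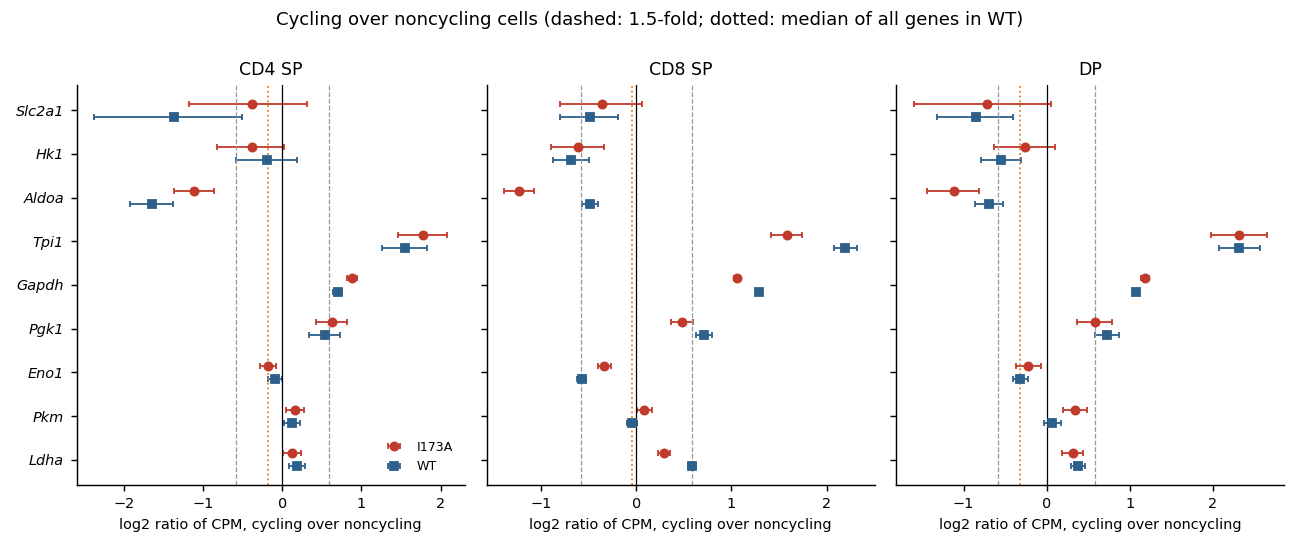
Log2 ratio of CPM, cycling over noncycling cells (horizontal axis, scaled by gate), for each measured member (rows), with I173A as red circles above WT as blue squares and bars for 95% counting intervals. Tpi1 lies farthest right in all gates (2.31 in both genotypes of DP), Aldoa to the left, and Pkm between 0.34 and -0.04, while the dotted line marks the median of all genes in WT (-0.32 in DP).

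Across gates, noncycling SP cells of WT mice held more of several members than noncycling DP cells. In CD4 SP over DP 4 of 9 members were past 1.5-fold higher and 0 lower, against 14.2% and 33.0% of 9401 genes. Eno1 stood at 1150.2 CPM in CD4 SP and 476.1 CPM in DP (2.42, 2.32 to 2.51), Pkm at 738.8 and 325.9 CPM (2.27, 2.16 to 2.38), Aldoa at 362.4 and 161.4 CPM (2.25, 2.10 to 2.40) and Ldha at 755.0 and 390.2 CPM (1.94, 1.85 to 2.02). In CD8 SP over DP 5 of 9 were higher and 0 lower, against 13.9% and 46.0% of 9366 genes. Tpi1 stood at 54.9 CPM in CD8 SP and 28.7 CPM in DP (1.91, 1.62 to 2.27), Aldoa at 300.8 and 161.4 CPM (1.86, 1.74 to 2.00), Eno1 at 874.8 and 476.1 CPM (1.84, 1.76 to 1.91), Ldha at 681.5 and 390.2 CPM (1.75, 1.67 to 1.83) and Pkm at 556.2 and 325.9 CPM (1.71, 1.62 to 1.79). The Tpi1 level of WT noncycling CD8 SP cells differed by cluster, at 39.5 and 34.2 CPM in clusters 2 and 4. In clusters 6 and 9 it was 170.6 and 111.5 CPM. Gapdh was close between gates on this scale, at 1510.1 CPM in CD4 SP cells, 1695 CPM in CD8 SP cells and 1644 CPM in DP cells. The medians of all genes were -0.32 in CD4 SP over DP and -0.51 in CD8 SP over DP, while the members' medians were 0.53 and 0.77. TMM placed the middle of all genes at -0.36 and -0.56, relative to which the members' medians were 0.89 and 1.33, and the signs of Gapdh and Hk1 in CD4 SP over DP and of Hk1 and Slc2a1 in CD8 SP over DP turned. With TMM or median-of-ratios factors Tpi1 and Pgk1 were also past the fold in CD4 SP over DP, and Pgk1 and Gapdh in CD8 SP over DP. That makes 6 of 9 higher and 0 lower for CD4 SP, against 22.4% and 17.1% of all genes under TMM, and 7 of 9 higher and 0 lower for CD8 SP, against 27.6% and 20.2%. Gapdh in CD8 SP over DP was at 0.61 on the log2 scale with either kind of factor. The gates are also 3 separate libraries, so library and gate cannot be told apart.

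For single members the order of the 6 noncycling groups was as follows. Eno1 ran from CD4 SP (I173A 1100.2 CPM, WT 1150.2 CPM) through CD8 SP (833.8 and 874.8 CPM) to DP (379.7 and 476.1 CPM), with no overlap of counting intervals between gates. Pkm and Aldoa had the same order of gates. Tpi1 was highest in CD8 SP (53.1 CPM in I173A and 54.9 CPM in WT, whose intervals overlap) and lowest in DP. The noncycling CD8 SP class includes cluster 9, high in S phase genes, where WT cells held 111.5 CPM of Tpi1, against 39.5 CPM in cluster 2. Slc2a1 stood between 19.0 CPM in I173A DP cells and 28.5 CPM in WT CD4 SP cells, and neighbours in that order overlapped in their intervals. Hk1 ran between 61.2 CPM in I173A CD8 SP cells and 75.3 CPM in I173A CD4 SP cells.

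Member levels also differed between the clusters of a gate. In WT CD4 SP cells Eno1 stood at 1451 CPM in cluster 3, led by Itm2a, Chl1 and Ccr4, against 1029 CPM in cluster 1, led by St8sia6 and S1pr1. Pkm stood at 936.7 and 615.0 CPM and Gapdh at 1918 and 1145 CPM in the same clusters. Pgk1 (201.3 and 132.7 CPM), Aldoa (431.4 and 303.7 CPM), Ldha (795.6 and 718.4 CPM) and Tpi1 (38.8 and 30.9 CPM) were higher there by point value as well, while Hk1 was at 64.5 and 67.0 CPM. Levels of Tpi1 above these were found in cluster 20 (130.8 CPM), led by Akr1c18 and Igfbp4 and high in S phase genes. They were also found in cluster 15, led by S100a6 and Ccl5 (111.3 CPM), where Aldoa was also highest (667.9 CPM). In WT CD8 SP cells cluster 6, led by Lad1, Xcl1 and Tnfrsf9, held 170.6 CPM of Tpi1 and 988.3 CPM of Ldha, against 39.5 and 638.5 CPM in cluster 2, the largest. In clusters of low UMI count the 10 members summed to 1162 CPM in WT cluster 5 and 1231 CPM in WT cluster 17 of the DP gate and 1251 CPM in WT cluster 13 of the CD4 SP gate, whose median UMI counts over all cells were 1581.5, 1014 and 1610.5. Hk1 and Slc2a1 were not low in WT DP cluster 5, with Hk1 at 105.4 CPM against 70.1 CPM in cluster 0, and Slc2a1 at 71.9 against 22.3 CPM. The share of mitochondrial UMIs was 4.76% in cluster 13 and 4.35% in cluster 17, and its part in these values was not tested.

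**Figure D4:**
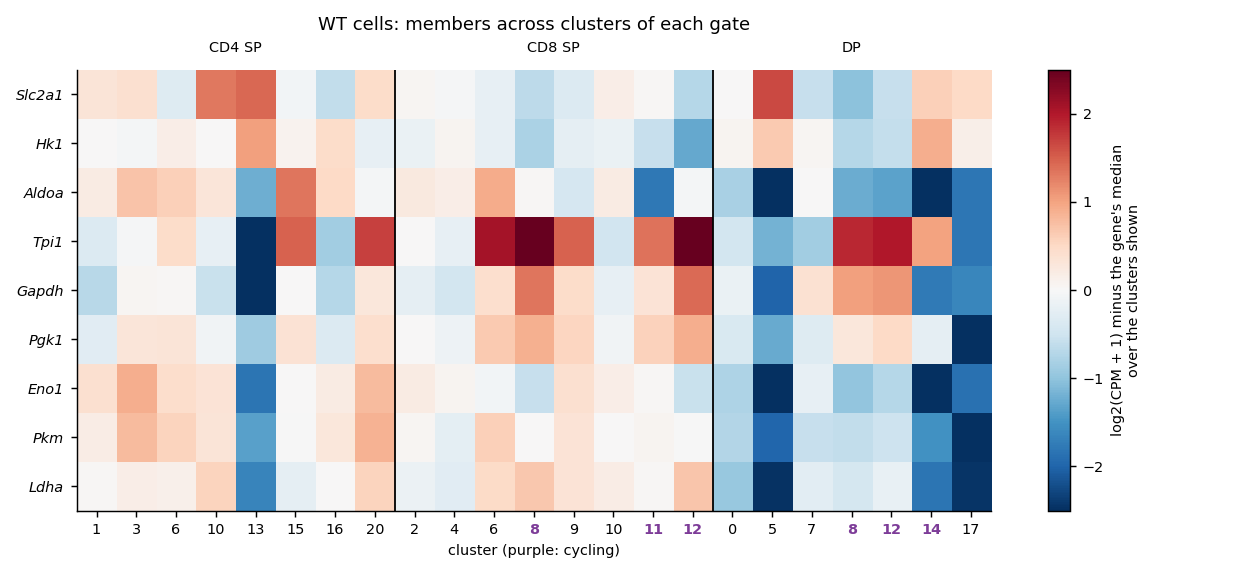
Members (rows) across the WT clusters of at least 50 cells in each gate (columns, cycling clusters in purple), coloured by log2(CPM + 1) minus the gene's median over the clusters shown, with colours cut at 2.5 in either direction. Tpi1 is high in clusters 8 and 12 of the CD8 SP gate (304.8 and 316.9 CPM), and clusters 5, 13, 14 and 17 are low in most members except Slc2a1 and Hk1.

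Over the 12 groups of gate, genotype and cycling state, the members fell into sets by Pearson correlation of log2(CPM + 1), given as a description since the groups share 3 libraries. Tpi1 correlated at 0.93 with Gapdh and 0.91 with Pgk1, Eno1 at 0.93 with Pkm, and Aldoa at 0.83 with Slc2a1. Hk1 ran against the first set, at -0.88 with Gapdh and -0.87 with Tpi1. The sets were not cleanly apart, since Ldha correlated at 0.85 with Pkm, 0.83 with Pgk1 and 0.70 with Eno1. Within the first set, Pgk1 correlated at 0.75 with Gapdh. Among 8199 genes of at least 20 CPM in 1 group, those most like the mean of the members were Mtap (0.95), Setd6 (0.93), Spata5 (0.92), Pprc1 (0.92) and 9130401M01Rik (0.92).

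The other genes of the pathway and its surroundings were counted by list in noncycling cells, I173A over WT. Of the other glycolysis enzymes, 8 of 16 were measured in each SP gate and 7 in DP, and 0 were past the fold in any gate. Ldhb, the other main subunit of lactate dehydrogenase, stood at 154.1 CPM in I173A and 125.2 CPM in WT CD4 SP cells (1.23) and at 904.6 and 906.2 CPM in DP cells (0.998). Pgam1, which acts between Pgk1 and Eno1, stood at 64.9 and 66.0 CPM in DP cells (0.984). Of the transport genes only Slc2a8, an intracellular glucose transporter, was past the fold, at 9.92 CPM in I173A and 5.35 CPM in WT DP cells (1.85, 1.21 to 2.90), among 5 measured.

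The regulator list had the most genes past the fold. In CD4 SP cells 3 of 10 measured were higher, in CD8 SP 3 of 8 higher and 1 lower, and in DP 3 of 9 higher and 2 lower. Of all genes, 5.21% were past the fold higher and 2.12% lower in CD4 SP cells, 4.22% and 2.23% in CD8 SP cells, and 8.16% and 4.38% in DP cells. This list and the others were chosen with earlier results of these data known, so their counts are not independent of the data and cannot be tested against these shares. Txnip, which restrains glucose uptake, stood at 352.1 CPM in I173A and 266.7 CPM in WT CD4 SP cells (1.32, 1.27 to 1.37), at 323.4 and 237.5 CPM in CD8 SP cells (1.36, 1.30 to 1.42) and at 666.6 and 422.6 CPM in DP cells (log2 ratio 0.66, 0.59 to 0.73). Ddit4, an inhibitor of mTORC1 signalling, stood at 372.1 and 174.0 CPM in CD4 SP cells (2.14, 2.05 to 2.23), at 336.9 and 175.4 CPM in CD8 SP cells (1.92, 1.83 to 2.02) and at 218.6 and 148.9 CPM in DP cells (1.47, 1.35 to 1.60). Both were thus higher in I173A cells of every gate. Mlxip, whose protein (MondoA) activates Txnip, was past the fold at 24.3 and 19.4 CPM in CD4 SP cells (log2 ratio 0.33) and at 21.7 and 15.6 CPM in CD8 SP cells (1.39, 1.17 to 1.66). Arrdc3, a relative of Txnip, was lower at 5.45 and 9.05 CPM in CD8 SP cells (0.602, 0.449 to 0.802) and at 10.6 and 14.7 CPM in DP cells (0.721, 0.524 to 0.989). Myc, a transcription factor that drives glycolysis genes in dividing cells, stood at 16.7 and 25.4 CPM in DP cells (0.658, 0.514 to 0.840). Pfkfb4, which sets a regulator of phosphofructokinase, stood at 7.20 and 4.01 CPM in DP cells (1.80, 1.09 to 3.04).

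Of the genes for pyruvate entry into mitochondria, 12 of 13 were measured in each gate and 0 were past the fold, and of the pentose phosphate genes 7 of 7 were measured and 0 were past it. Of 16 genes of the tricarboxylic acid cycle 1 was past the fold, Suclg2 in DP cells (16.2 CPM in I173A and 12.4 CPM in WT, 1.31, 0.970 to 1.77). The hypoxia list outside glycolysis had 2 of 13 higher in CD4 SP cells, 2 of 12 in CD8 SP cells, and 2 of 13 higher and 1 lower in DP cells. The same shares of all genes stand beside the counts of each of these lists, and 2 and 1 of 13 hypoxia genes in DP cells are near 8.16% and 4.38%. Counts of 0 or 1 on lists so short are likewise not a result about those lists. Ddit4 is in this list too, and the others were Egln3 in CD4 SP (8.80 and 5.94 CPM, 1.48), Bnip3 in CD8 SP (6.82 and 5.11 CPM, 1.34) and in DP (10.3 and 8.02 CPM, 1.29), and Ankrd37, lower in DP (15.8 and 23.9 CPM, 0.659). In cycling CD8 SP cells 5 of 7 pentose phosphate genes were past the fold lower in I173A, against 15.6% of all genes there. They were Rpia (39.3 and 54.1 CPM, 0.728), Pgls (243.7 and 328.8 CPM, 0.741), G6pdx (22.4 and 29.1 CPM, 0.768), Rpe (28.8 and 37.2 CPM, 0.774) and Tkt (338.7 and 432.0 CPM, 0.784). The cycling clusters of that gate differed in makeup between genotypes as given above, and its part in this count was not tested.

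**Figure D5:**
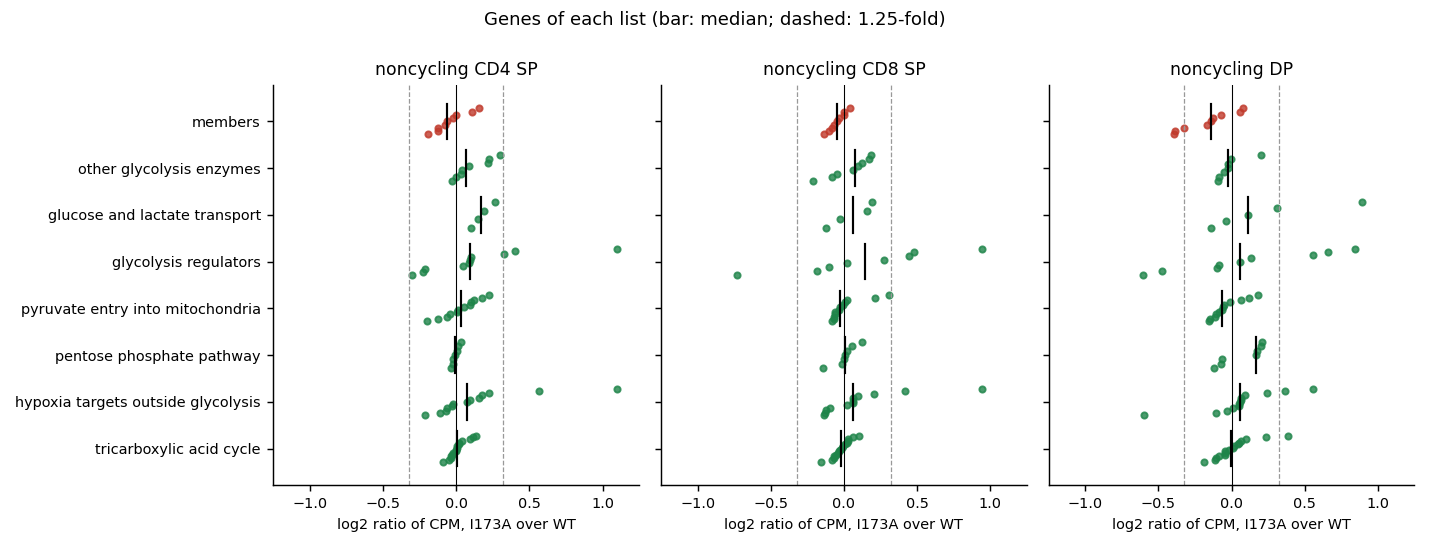
Log2 ratio of CPM, I173A over WT (horizontal axis), for each measured gene of the lists (rows, members in red at the top) in noncycling cells of the 3 gates, with a black bar at each list's median and dashed lines at 0.32 in either direction. The members' medians are -0.06 for CD4 SP, -0.05 for CD8 SP and -0.14 for DP cells, and the points farthest right among the regulators in CD4 SP and CD8 SP are Ddit4 (1.10 and 0.94).

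Reads of near copies could be split from some members. The near copy Eno1b had 591 UMIs over all cells, against 122221 for Eno1, Gapdhs had 11 against 288211 for Gapdh, and the second Aldoa row had 56 against 38917. Other copies of these genes were not examined, so the levels carry that uncertainty. Since each UMI is read near the 5′ end, levels were compared between groups for the same gene and not between genes.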

How the data were processed

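Single thymocytes were sorted into 3 gates and sequenced with a droplet 5′ kit, 1 library per gate, per the labels' protocols. The authors deposited counts of UMIs per gene and hashtag for each cell barcode, made with Cell Ranger 6.0.1 and mouse build GRCm38 (mm10), as the submitters' processing notes list, and per the file headers with software 3.1.0. These deposited counts were not normalized. The sources used here do not describe any filter on barcodes.

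A cell was given to a hashtag with at least 10 counts and 4 times each other hashtag. Cells with several hashtags (4.24% of CD4 SP, 5.48% of CD8 SP and 6.27% of DP barcodes) were dropped as doublets, no other doublet caller was run, and cells under 500 genes or over 10% mitochondrial UMIs were left out. Cells were clustered with Scanpy 1.11.5 and leidenalg 0.10.2 (2000 variable genes, 30 components, 15 neighbours, resolution 1). UMIs were summed by gate, genotype and cycling state and given as CPM. Levels have exact Poisson and ratios exact conditional 95% intervals, from SciPy 1.17.1, shares of cells exact Clopper-Pearson ones, and 3 counts are the limit that a count of 0 allows. A gene was measured in a comparison with a mean of at least 5 CPM and 20 UMIs over both groups. It was past the fold at a log2 difference of 0.32 between genotypes or at 1.5-fold between cycling states or gates. Each genotype is 1 sample per gate, so no differential test was run, and edgeR 4.0.16 gave TMM factors only. The ratio code was tested on simulated data. Values of all 10 members were computed for each comparison, and the text names only some of them in most comparisons. Also named are the genes of each list farthest past the fold, and the 5 genes of highest correlation with the members. The members and lists were chosen with earlier results of these data known. Alternatives changed the scaling, the weighting of cells, the hashtag, mitochondrial and depth filters, the cycling class, the clusters kept, the floor and the near copies. Cells of hashtag 5, which the labels give no genotype, entered no comparison.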

Additional observations from a re-analysis of the deposited data

Results flagged for a closer look

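For 3 members the genotype ratio in cycling cells had a counting interval above 1 in a gate and below 1 in another. Other members, such as Tpi1 and Pgk1, also changed sign between gates by point value, but without such intervals on both sides. The differences between gates were not tested, since each genotype is 1 sample per gate. The log2 ratio of Aldoa, I173A over WT, was 0.4148 in CD4 SP (131 and 115 UMIs), against -0.8473 in CD8 SP and -0.4921 in DP. The log2 ratio of Eno1 was 0.1706 in CD8 SP, against -0.1616 in CD4 SP and -0.2312 in DP. The log2 ratio of Gapdh was 0.1621 in CD4 SP, against -0.3120 in CD8 SP. The cycling class held 50 I173A and 57 WT cells in CD4 SP, and cluster 8 held 15.8% of I173A and 41.4% of WT cycling CD8 SP cells, and the part of either in these values was not tested.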

How the results depend on the processing

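In the noncycling genotype comparisons no member past the fold turned direction, and the members' medians kept their sign under all alternatives. Some single members short of the fold changed sign there, among them Ldha in each gate. Medians of some comparisons with cycling cells also changed sign under some alternatives. Some calls in cycling cells were lost, among them those of Aldoa and Slc2a1 (lower in cycling than in noncycling WT DP cells) with TMM or median-of-ratios factors, and that of Tpi1 (lower in I173A than in WT cycling CD8 SP cells) in cluster 11 alone (ratio 1.01, against 0.632 in the whole class). Most alternatives kept the members' median log2 ratio between the medians of the members' lower and upper counting limits. Where it left that range, the cause was not tested, except that scaling factors shift all genes alike. With TMM and median-of-ratios factors it was -0.1156 and -0.1152 for I173A over WT in noncycling CD4 SP, 0.3685 and 0.3978 for cycling over noncycling in WT DP, 0.5960 and 0.6284 in I173A DP, 0.8931 and 0.9049 for CD4 SP over DP, and 1.3326 and 1.3393 for CD8 SP over DP. Median-of-ratios factors gave 0.2453 for cycling over noncycling in WT CD4 SP. With cells thinned to 1500 UMIs it was -0.0283 in WT CD4 SP and 0.1528 in I173A DP for cycling over noncycling, and 0.6309 for CD8 SP over DP. With only cells of 3000 to 12000 UMIs it was 0.1624 for I173A over WT in cycling DP, and for cycling over noncycling 0.0167, -0.2093 and -0.2896 in WT CD4 SP, CD8 SP and DP and -0.0249 and -0.0739 in I173A CD4 SP and CD8 SP, and 0.6093 for CD8 SP over DP. With S phase clusters also counted as cycling it was 0.2821 and 0.0894 in WT CD4 SP and CD8 SP, 0.2733 in I173A CD8 SP, and 0.6733 for CD8 SP over DP. With cycling set by at least 3 marker UMIs per cell it was 0.2788 and 0.0430 in WT CD4 SP and CD8 SP and 0.2049 in I173A CD8 SP. As a mean over cells it was -0.0849 in WT DP and 0.0006 in I173A CD4 SP. With no floor, so that Hk2 entered, it was 0.2739 and -0.1241 in WT CD8 SP and DP, -0.0301 and 0.1908 in I173A CD4 SP and CD8 SP, and 0.6525 for CD8 SP over DP. With cycling cluster 11 alone it was 0.0038 for I173A over WT in CD8 SP. That alternative, the one without cluster 5 and the one without cluster 14 were chosen after seeing the data. No paired analysis was possible because each gate holds 1 sample per genotype. No replicate could be left out for the same reason. Depth limits Hk2 in all groups and Slc2a1 in cycling CD4 SP and DP cells, where I173A gave 17 and 15 UMIs. Intervals cover counting error only, so differences between mice are not in them.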

Other observations

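Cells with hashtag 5, which the labels give no genotype, numbered 2829 in the CD4 SP library, 2745 in the CD8 SP library and 2765 in the DP library. Cycling cells were 2.23% of them in CD4 SP (1.72 to 2.84%), 14.4% in CD8 SP (13.1 to 15.8%) and 11.9% in DP (10.7 to 13.1%). In their noncycling DP cells Eno1 stood at 437.5 CPM, Tpi1 at 29.0 CPM and Slc2a1 at 29.8 CPM. In their cycling DP cells Tpi1 stood at 126.0 CPM, Gapdh at 3490.3 CPM and Aldoa at 105.1 CPM. In their cycling CD8 SP cells Tpi1 stood at 227.9 CPM and Aldoa at 189.7 CPM.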
